A study of Mus musculus with 35 samples.

Results

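The genes described here encode the soluble and microsomal enzymes of phase II drug metabolism that attach glutathione, sulfate or a sugar to a substrate, measured in mouse liver after injection of silica particles. They were chosen by name from the array's annotation and not by their values, although earlier results of these data were known. Taken was every gene of the glutathione transferase (Gst), sulfotransferase (Sult) and UDP-glycosyltransferase (Ugt) families with a probe set annotated to that gene alone. Each was represented by its probe set of highest mean signal. Of 42 such genes, 35 had a signal above 165, the median of all values, on 5 or more of the 35 arrays and are the members followed below, out of 12670 genes that passed the same filter. They comprise 18 of 20 glutathione transferases, 7 of 12 sulfotransferases and 10 of 10 glycosyltransferases. The 7 that did not pass were Gsto2, Gstt4, Sult1c1, Sult1e1, Sult2b1, Sult3a1 and Sult4a1, each above 165 on 0 to 3 arrays. Among the 35, 33 were above 165 on all 35 arrays, Sult1c2 on 32 and Sult2a2, the member nearest the limit, on 10.

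The livers came from BALB/c mice killed 6 h after a single intravenous injection, with 5 randomly assigned mice in each of 7 groups and 1 array per mouse from the left lateral lobe. Controls received deionized water, the vehicle. The treated mice received silica particles called SP30, SP70 and SP300, which differ in size: 10 mg/kg of SP30, 10, 20 or 40 mg/kg of SP70, and 10 or 200 mg/kg of SP300. The design compared doses of SP70, sizes at one dose of 10 mg/kg, and sizes at doses that had proved toxic (10 mg/kg of SP30, 40 mg/kg of SP70 and 200 mg/kg of SP300). No mouse carried an engineered allele according to the labels, and age was not used here.

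Phase II enzymes make a lipophilic drug, steroid, bile acid or reactive metabolite more water-soluble by adding a polar group, after which transporters move the conjugate into bile or blood. Glutathione transferases use the tripeptide glutathione, sulfotransferases use the activated sulfate PAPS, and most glycosyltransferases use UDP-glucuronic acid. Hepatocytes hold large amounts of all 3, and nuclear receptors, the aryl hydrocarbon receptor and the stress factor NRF2 control many of their genes.

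Signals are MAS5 values on a linear scale, array medians ran from 148.8 to 180.2, and a gene is said to have risen or fallen where limma's adjusted p, over all 12670 genes, was below 0.05. Differences are on the log2(signal + 12.5) scale with their standard error (SE), folds are ratios of geometric means, and all 6 comparisons with control share the same 5 control mice. Control mouse 1 had the largest root mean square deviation from its group over the 35 members, 1.22 log2 units against at most 0.67 for any other mouse. Much of this came from Sult2a2, at 12180 in that mouse and 5.143 to 145.5 in the other controls. The deviation without Sult2a2 was not computed. Counts are also given without this mouse. In whole liver, fewer cells of a type and less RNA per cell cannot be told apart.

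Many members fell in the livers given SP30 or SP70 at 20 or 40 mg/kg. Sult1a1 was higher than control in every treated group, although with SP70 and SP300 at 10 mg/kg it did not pass the threshold in fits of only the 2 groups compared. With SP30 at 10 mg/kg, 21 of 35 members fell and 1 rose, where 31.3% of all genes tested fell and 18.1% rose. With SP70, the counts were 0 lower and 1 higher at 10 mg/kg (5.7% and 12.5% of all genes), 17 lower and 1 higher at 20 mg/kg (20.9% and 18.8%), and 24 lower and 1 higher at 40 mg/kg (28.8% and 15.6%). SP300 lowered 11 members and raised 1 at 200 mg/kg (18.1% and 12.6% of all genes), and at 10 mg/kg lowered 0 and raised 1 (0.245% and 0.923%). The median difference over the 35 members was -0.07, -0.34 and -0.47 for the rising doses of SP70, -0.40 for SP30, and 0.06 and -0.22 for SP300, beside medians over all genes of 0.01, -0.03, -0.09, -0.12, 0.06 and -0.06. At an unadjusted p below 0.05, 2 members were lower and 1 higher with SP70 at 10 mg/kg, and 0 were lower and 4 higher with SP300 at 10 mg/kg.

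In several of these comparisons the treated mice did not overlap the controls at all. With SP70 at 10 mg/kg this held for 0 members (8.9% of all genes above and 3.42% below the controls), and with SP300 at 10 mg/kg for 0 (2.37% and 0.592%). All 5 treated mice lay below all 5 controls for 11 members with SP70 at 20 mg/kg (15.8% of all genes, with 14.2% above), 15 at 40 mg/kg (20.5%), 17 with SP30 (21.7%) and 3 with SP300 at 200 mg/kg (12.4%). Sult1a1 was the 1 member with all treated mice above all controls, with SP70 at 40 mg/kg (9.47% of all genes), SP30 (12.2%) and SP300 at 200 mg/kg (8.05%). Without control mouse 1, the lower and higher counts were 20 and 1 for SP30, 1 and 2, 19 and 2, and 25 and 1 for SP70 in order of dose, and 0 and 1, then 13 and 1, for SP300. The 2 members gained there with SP70 at 10 mg/kg were Sult5a1 (-0.77, adjusted p = 0.035) and, upward, Sult2a2 (2.61, adjusted p = 0.044). After quantile normalization, SP70 at 10 mg/kg gave 4 lower and 1 higher (Gstm5, Gstm7, Ugt2a3 and Ugt2b5 below control), so the count at that dose rests on the scaling. Over all genes the split of higher to lower calls also moved with the scaling: from 1580 and 722 to 1316 and 1407 after quantile normalization with SP70 at 10 mg/kg and from 117 and 31 to 73 and 56 with SP300 at 10 mg/kg, and, with arrays centred on their medians, from 2383 and 2654 to 1867 and 3275 with SP70 at 20 mg/kg, from 117 and 31 to 57 and 30 with SP300 at 10 mg/kg and from 1598 and 2287 to 1772 and 1536 at 200 mg/kg.

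**Figure D1:**
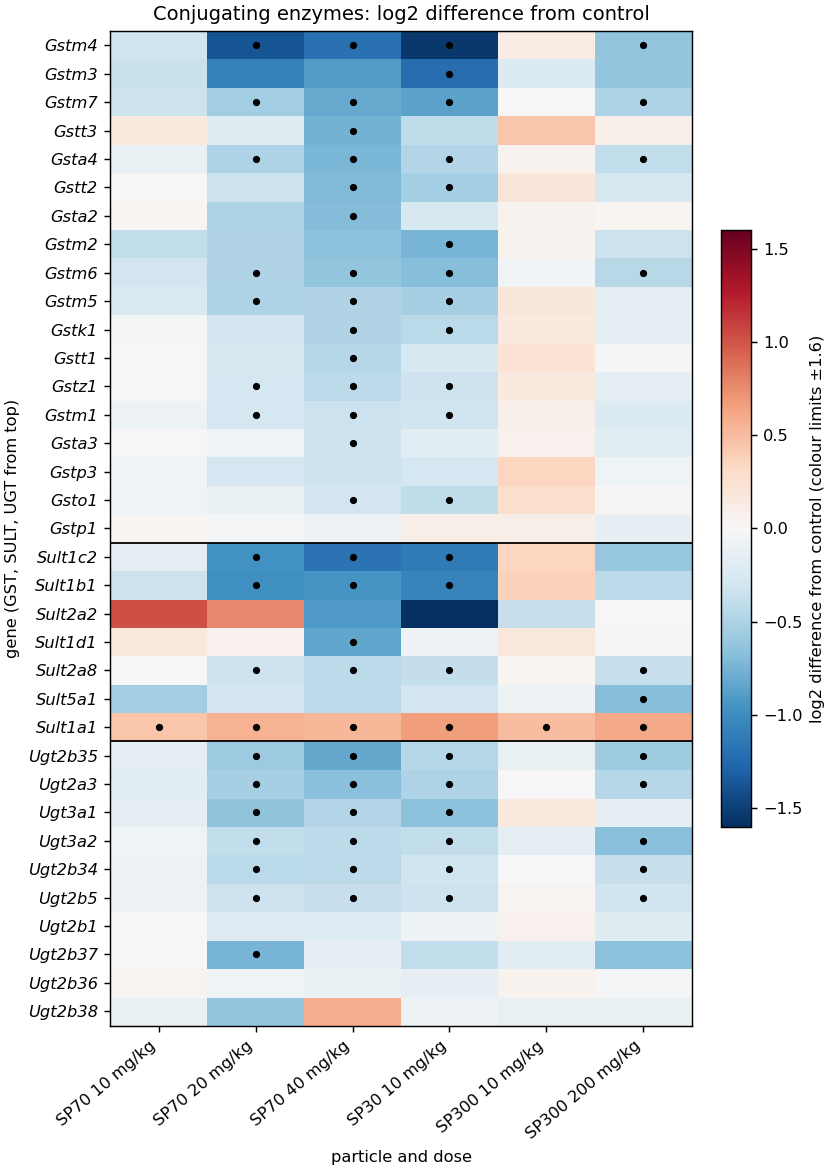
Difference from control (log2, colour from -1.6 to 1.6) of each of the 35 members in the 6 treated groups, with a dot where the adjusted p was below 0.05. The SP70 40 mg/kg and SP30 columns hold 24 and 21 falling members, Sult1a1 is marked in all 6 columns, and the value of Sult2a2 with SP30 (-1.94) lies beyond the colour range.

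Members of all 3 families fell in the 4 groups named next, in which 20.9%, 28.8%, 31.3% and 18.1% of all genes fell. Of 18 glutathione transferases, 7, 14, 12 and 4 fell with SP70 at 20 and 40 mg/kg, SP30 and SP300 at 200 mg/kg, with medians of -0.32, -0.56, -0.42 and -0.17. Of 7 sulfotransferases, 3, 4, 3 and 2 fell, with medians of -0.30, -0.83, -0.39 and -0.37. Of 10 glycosyltransferases, 7, 6, 6 and 5 fell, with medians of -0.48, -0.39, -0.36 and -0.34. By member, 10 fell in 4 groups (Gsta4, Gstm4, Gstm6, Gstm7, Sult2a8, Ugt2a3, Ugt2b34, Ugt2b35, Ugt2b5 and Ugt3a2), 6 in 3 groups, 3 in 2 groups and 9 in 1 group. The 6 members with no difference from control past the threshold in any group were Gstp1, Gstp3, Ugt2b1, Ugt2b36, Ugt2b38 and Sult2a2. Without control mouse 1, Gstp1, Ugt2b1, Ugt2b38 and Sult2a2 each passed in 1 to 3 groups. Gstp1, Ugt2b1 and Ugt2b36 exceeded 48037, the level passed by 0.5% of all values, on 35, 33 and 17 arrays. Of the members that did pass, Gsta3, Sult1a1, Ugt2b5 and Sult2a8 exceeded that level on 29, 28, 19 and 14 arrays. Whether such bright probe sets were near saturation was not tested.

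Among the glutathione transferases, the mu class (Gstm), broad-range enzymes that conjugate electrophiles such as epoxides, held the member with the deepest fall. Gstm4 measured 3311, 4099, 3184, 5145 and 3454 in the control mice (mean 3838 ± 811 SD, n = 5) and 1026, 1331, 1950, 1415 and 946.9 with SP30 (1334 ± 397 SD, n = 5). Every SP30 mouse was below every control, a 2.93-fold decrease (log2 difference -1.54 ± 0.25 SE, adjusted p = 3.4e-06). With SP70 the Gstm4 signals were 2508, 2660, 4366, 1924 and 4431 at 10 mg/kg, 1737, 1550, 1533, 1358 and 1102 at 20 mg/kg, and 2553, 1323, 2456, 1296 and 1127 at 40 mg/kg. The lowest dose overlapped the controls (-0.32, adjusted p = 0.418), while both higher doses lay wholly below them (-1.38 ± 0.25 SE, adjusted p = 2.82e-05, and -1.19 ± 0.25 SE, adjusted p = 0.000167). With SP300 the signals were 3098, 4569, 4173, 3619 and 5537 at 10 mg/kg and 3073, 1693, 4034, 2309 and 1727 at 200 mg/kg. The mice given 10 mg/kg were mixed in with the controls, and those given 200 mg/kg overlapped them and passed close to the threshold (-0.64, adjusted p = 0.0492). That call was lost when any 1 of 7 mice was left out (control mouse 1, 2, 4 or 5, or mouse 2, 4 or 5 of the treated group; adjusted p = 0.0513 to 0.154).

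The other mu-class genes fell less far. Gstm7 measured 3812, 4701, 3691, 3864 and 3233 in controls and 1615, 2289, 2431, 2084 and 2209 with SP30, without overlap (-0.86 ± 0.15 SE, adjusted p = 9.38e-06), and it fell by 0.80 ± 0.15 SE with SP70 at 40 mg/kg (adjusted p = 3.16e-05). A second probe set of Gstm7, with a mean of 274.4 in controls and 408.6 with SP70 at 40 mg/kg, moved the other way there (0.55, adjusted p = 0.0093). Its differences were above 0 in all 6 comparisons with control (0.19 to 0.55; 0.22 with SP30, adjusted p = 0.308), so the direction of this gene depends on the probe set. Gstm5 ran from 2634 to 3263 in controls and from 1814 to 2241 with SP30, a difference of -0.53. Gstm6 fell by 0.48, 0.64, 0.68 and 0.44 with SP70 at 20 and 40 mg/kg, SP30 and SP300 at 200 mg/kg, the last call being lost without control mouse 2 or 4 or mouse 2, 4 or 5 of the treated group (adjusted p = 0.0566 to 0.132). Gstm1, whose probe set is of a design that can also recognise related transcripts, fell by 0.28, 0.34 and 0.32 in the first 3 of these groups. The probe sets used for Gstm3, Gsto1 and Ugt2b34 are of such a design too. Gstm2 and Gstm3 varied widely between control mice (6089 to 10800 and 1086 to 4479) and passed the threshold with SP30 and in no other group, falling by 0.74 ± 0.29 SE (adjusted p = 0.0308) and 1.21 ± 0.48 SE (adjusted p = 0.0337), with overlapping mice. Between particles at 10 mg/kg, SP30 differed in part: for Gstm2 the difference from SP300 was -0.79 (adjusted p = 0.0199) and from SP70 -0.35 (adjusted p = 0.392), and for Gstm3 the differences were -0.99 and -0.86 (adjusted p = 0.081 and 0.183). Each of these calls against control rests on single mice: that of Gstm2 was lost without control mouse 1 (-0.70), 2 or 4 or SP30 mouse 2, 4 or 5 (adjusted p = 0.0512 to 0.105), and that of Gstm3 without control mouse 2 or 4 or SP30 mouse 4 or 5 (adjusted p = 0.0773 to 0.111). The difference of Gstm2 from SP300 was lost without SP30 mouse 5 or SP300 mouse 2 or 5 (adjusted p = 0.0692 to 0.074).

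All 7 Gstm genes sit together on chromosome 3, and 5, 5, 7 and 3 of them fell with SP70 at 20 and 40 mg/kg, SP30 and SP300 at 200 mg/kg. Their start-site sequences are shown for Gstm4, the member that fell furthest, and for Gstm5, at the other end of this stretch. The Gstm5 window carries the core of the antioxidant response element through which NRF2 acts. The 250 bases before the most upstream RefSeq start of each gene (GRCm38.p6) are printed 5′ to 3′ on the gene's strand, in lower case with matches to the marked motifs in capitals. The motifs were the antioxidant response element core TGACNNNGC, the xenobiotic response element core GCGTG bound by the aryl hydrocarbon receptor, the palindrome bound by the liver factor HNF1, the C/EBP core TTGCNNAA and the nuclear receptor core AGGTCA, searched on both strands.
Gstm4, chr3:108044860-108045109, minus strand: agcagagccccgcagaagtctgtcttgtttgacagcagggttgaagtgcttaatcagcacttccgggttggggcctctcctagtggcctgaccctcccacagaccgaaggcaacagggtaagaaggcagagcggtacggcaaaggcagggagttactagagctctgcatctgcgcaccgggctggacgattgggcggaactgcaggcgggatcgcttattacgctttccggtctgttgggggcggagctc
Gstm5, chr3:107895604-107895853, plus strand: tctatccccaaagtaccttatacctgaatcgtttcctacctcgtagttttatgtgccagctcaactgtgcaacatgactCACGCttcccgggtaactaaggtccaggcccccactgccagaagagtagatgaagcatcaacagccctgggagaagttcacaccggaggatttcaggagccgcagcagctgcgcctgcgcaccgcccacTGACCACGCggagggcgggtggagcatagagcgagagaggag

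The Gstm4 window held none of these letters, and the Gstm5 window held TGACNNNGC once and GCGTG on the opposite strand, the second of its GCGTG matches overlapping TGACNNNGC. Of 31 members with a window, 2 (Gsta3 and Gstm5, 6.45%) held TGACNNNGC, beside 10.1% of 27025 windows of all genes. GCGTG stood in 6 of 31, beside 28.3% of all windows, and TTGCNNAA in 7, beside 9.55%. The 3 further motifs searched and not marked were GTTAAT (5 of 31, beside 6.54%), an HNF1 motif of 10 letters (1, beside 0.411%) and TATAAA (4, beside 13%). A match describes the letters in this window and is no measurement of binding.

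The other glutathione transferase classes differed in how many groups they fell in. Gsta4, which clears the lipid peroxidation product 4-hydroxynonenal, measured 12260, 11410, 11080, 9746 and 9386 in controls and 6460, 6768, 6512, 6972 and 5528 with SP70 at 40 mg/kg. The groups did not overlap, and the difference was -0.74; it was -0.49 at 20 mg/kg, -0.47 with SP30 and -0.40 with SP300 at 200 mg/kg. The other 2 alpha-class genes, Gsta2 and Gsta3, passed on the probe sets used with SP70 at 40 mg/kg and in no other group, falling by 0.69 and 0.34. A second probe set of Gsta3 passed in other groups as well, with differences of -0.42 with SP70 at 20 mg/kg (adjusted p = 0.00281) and -0.45 with SP30 (adjusted p = 0.00118). Gstz1, the zeta-class enzyme that isomerises maleylacetoacetate in tyrosine breakdown, ran from 27560 to 32120 in controls and from 19390 to 25560 with SP70 at 40 mg/kg, again without overlap (-0.42), and fell by 0.28 at 20 mg/kg and 0.33 with SP30. Gsto1, an omega-class enzyme that reduces dehydroascorbate, fell by 0.31 with SP70 at 40 mg/kg and 0.41 with SP30; the first of these calls was lost without control mouse 1 (-0.22, adjusted p = 0.0712). On a second probe set it also passed with SP70 at 20 mg/kg (-0.33, adjusted p = 0.011). The same 2 groups lowered Gstk1, the kappa-class enzyme of mitochondria and peroxisomes, by 0.48 and 0.43.

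The theta-class genes Gstt1, Gstt2 and Gstt3, which act on small halogenated compounds and lie close together on chromosome 10, all fell with SP70 at 40 mg/kg, by 0.45, 0.70 and 0.76. Gstt2 fell by 0.55 with SP30 as well, a call lost without control mouse 1 (-0.39, adjusted p = 0.144), 2 or 3 or SP30 mouse 2, 3 or 5. Gstt3 was the most uneven of them in controls, at 6002, 3269, 2594, 1430 and 1105, against 1575, 1043, 1855, 1228 and 1514 with SP70 at 40 mg/kg, so that its groups overlapped. Without control mouse 1 its difference was -0.43 (adjusted p = 0.181), and the call was also lost without control mouse 2 or 3 or mouse 2 or 4 of the treated group (adjusted p = 0.0544 to 0.0836). The pi-class enzyme Gstp1 measured 55700, 74500, 82270, 86830 and 84850 in controls and 73930, 80660, 83680, 85400 and 82830 with SP30. Its 6 differences from control ran from -0.14 with SP300 at 200 mg/kg to 0.10 with SP30, with none past the threshold, and those of Gstp3 ran from -0.33 to 0.34.

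**Figure D2:**
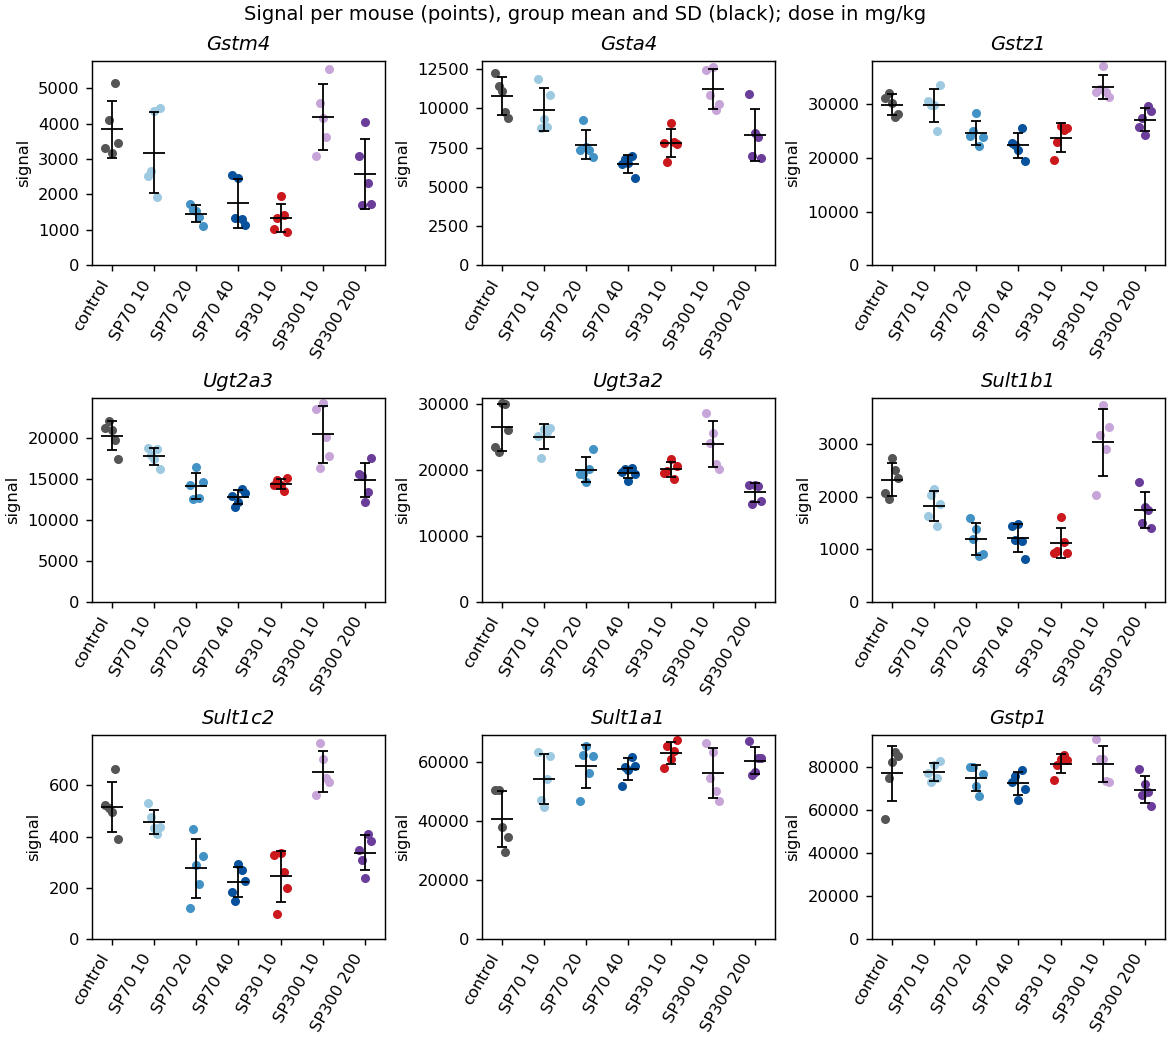
MAS5 signal of 9 members in each of the 35 mice (points), by group, with the mean and SD of each group of 5. Gstm4, Sult1b1 and Sult1c2 lie lowest with SP70 at 20 and 40 mg/kg and SP30, Sult1a1 lies above its control mean in all 6 treated groups, and Gstp1 lies between 55700 and 93020 in all mice.

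The sulfotransferases moved in both directions. Sult1a1, the phenol sulfotransferase that acts on many drugs and dietary phenols, measured 50210, 50250, 37820, 29390 and 34550 in the control mice (40440 ± 9425 SD, n = 5). With SP30 it measured 57770, 65350, 60730, 63630 and 67280 (62950 ± 3764 SD, n = 5), all above the controls and 1.59-fold higher (0.67 ± 0.12 SE, adjusted p = 1.37e-05). With SP70 at 10 mg/kg the signals were 63320, 46990, 44570, 54030 and 61810, at 20 mg/kg 46800, 62130, 65200, 56010 and 62050, and at 40 mg/kg 51690, 58150, 57260, 61680 and 58610. The highest dose lay wholly above the controls and the 2 lower doses overlapped them, with differences of 0.44, 0.55 and 0.54 (each ± 0.12 SE, adjusted p = 0.00697, 0.000261 and 0.000309). With SP300 the signals were 66400, 54340, 63090, 49970 and 46750 at 10 mg/kg and 66880, 55510, 56590, 61260 and 61170 at 200 mg/kg, and only the latter cleared all controls. Those differences were 0.49 ± 0.12 SE (adjusted p = 0.0259) and 0.60 ± 0.12 SE (adjusted p = 0.00014).

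Sult1a1 was thus the 1 member counted higher in each group, and in the 7 comparisons between treated groups it passed the threshold in 0, with differences from -0.07 to 0.23. All 6 of its calls rest on the same 5 control mice. In fits of only the 2 groups compared, those at 10 mg/kg of SP70 and SP300 were lost (adjusted p = 0.0643 and 0.198). With SP300 at 10 mg/kg the call was lost when control mouse 3, 4 or 5 was left out (adjusted p = 0.0608, 0.1 and 0.0729), or mouse 1 or 3 of the treated group (0.0743 and 0.108). Without control mouse 1 the 6 differences were 0.52, 0.64 and 0.62 for SP70, 0.75 for SP30, and 0.58 and 0.69 for SP300. Its signal exceeded 48037, the level passed by 0.5% of all values, on 28 arrays; whether such bright probe sets were near saturation was not tested. The window before its start, shown because it is the riser, held none of the 5 motifs.
Sult1a1, chr7:126676419-126676668, minus strand: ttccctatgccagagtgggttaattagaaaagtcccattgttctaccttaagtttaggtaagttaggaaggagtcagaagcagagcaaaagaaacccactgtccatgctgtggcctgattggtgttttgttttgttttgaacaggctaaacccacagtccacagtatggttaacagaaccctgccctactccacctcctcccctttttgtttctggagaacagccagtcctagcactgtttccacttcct

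Sult1b1, which sulfates thyroid hormones, moved the other way. It measured 2079, 1963, 2730, 2504 and 2367 in controls and 932.5, 965.7, 1612, 1143 and 933.7 with SP30. Each SP30 mouse was below each control, a 2.12-fold decrease (-1.07 ± 0.18 SE, adjusted p = 5.76e-06). With SP70 it measured 1645, 2044, 2148, 1454 and 1868 at 10 mg/kg, 1601, 1192, 1393, 874.6 and 913.9 at 20 mg/kg, and 1438, 1179, 1491, 1164 and 824.6 at 40 mg/kg. The lowest dose overlapped the controls and the higher doses did not, with differences of -0.35, -0.98 ± 0.18 SE and -0.95 ± 0.18 SE (adjusted p = 0.191, 3.42e-05 and 4.55e-05). With SP300 the differences were 0.36 at 10 mg/kg and -0.42 at 200 mg/kg (adjusted p = 0.355 and 0.0748).

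Sult1c2, a member near the filter, measured 521.6, 512.2, 496.7, 664.8 and 389.7 in controls and 327.3, 96.93, 336.8, 261.6 and 200.3 with SP30, without overlap. Because 1 SP30 mouse was below 165, the decrease is at least 2.05-fold (-1.14 ± 0.26 SE, adjusted p = 0.000348). It was at least 1.89-fold lower with SP70 at 20 mg/kg (-0.97 ± 0.26 SE, adjusted p = 0.00242) and at least 2.3-fold lower at 40 mg/kg (-1.18 ± 0.26 SE, adjusted p = 0.000245). Sult2a8, a bile acid sulfotransferase of mouse liver, fell more evenly: 49730, 48190, 54480, 52280 and 50850 in controls against 37280, 37720, 42000, 45480 and 36340 with SP300 at 200 mg/kg. These mice did not overlap (-0.37 ± 0.07 SE, adjusted p = 4.28e-05), and the differences were -0.33, -0.42 and -0.39 with SP70 at 20 and 40 mg/kg and SP30.

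Sult1d1, which accepts catecholamines, passed the threshold with SP70 at 40 mg/kg and in no other group. It measured 31180, 29190, 16350, 12160 and 18740 in controls and 12410, 9923, 8607, 13590 and 13150 at that dose, overlapping in part (-0.83 ± 0.24 SE, adjusted p = 0.00477). At that dose it was also below SP70 at 10 mg/kg (-0.996 ± 0.24 SE, adjusted p = 0.00163) and SP300 at 200 mg/kg (-0.81 ± 0.24 SE, adjusted p = 0.0181), whereas against SP30 the difference missed the threshold (adjusted p = 0.0597). It passed no longer against SP300 without SP70 mouse 3 (adjusted p = 0.0561). Sult5a1 fell with SP300 at 200 mg/kg (-0.68 ± 0.26 SE, adjusted p = 0.0459), a call lost without control mouse 3, 4 or 5 or mouse 2, 4 or 5 of the treated group (adjusted p = 0.076 to 0.193). Sult2a2, a hydroxysteroid sulfotransferase, was near or below 165 in most mice: in controls it measured 12180, 145.5, 93.03, 11.32 and 5.143, and no group had all 5 mice above 165. Its differences from control, from -1.94 to 1.04, did not pass the threshold.

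Among the glycosyltransferases, which add glucuronic acid or another sugar, Ugt2a3, Ugt2b34, Ugt2b35, Ugt2b5 and Ugt3a2 each fell in 4 groups. Ugt2a3 measured 21190, 21960, 20870, 19710 and 17450 in controls, 12870, 11590, 12180, 13780 and 13270 with SP70 at 40 mg/kg, and 14190, 14860, 14220, 13490 and 15100 with SP30. Both treated groups lay wholly below the controls, with differences of -0.67 and -0.49. It also fell by 0.53 with SP70 at 20 mg/kg, and by 0.46 ± 0.09 SE with SP300 at 200 mg/kg (adjusted p = 0.000297). Ugt2b35 fell by 0.81 ± 0.15 SE with SP70 at 40 mg/kg (adjusted p = 3.36e-05) and by 0.58, 0.46 and 0.57 with SP70 at 20 mg/kg, SP30 and SP300 at 200 mg/kg, the controls ranging from 17730 to 31800; the call with SP30 was lost without control mouse 4 (-0.37, adjusted p = 0.0501). Ugt2b34 fell by 0.43, 0.41, 0.32 and 0.36 in the same order of SP70 at 20 and 40 mg/kg, SP30 and SP300 at 200 mg/kg.

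The Ugt3 enzymes use other sugars than glucuronic acid. Ugt3a2 measured 23400, 22620, 30100, 29870 and 25970 in controls and 17720, 14870, 17610, 17490 and 15230 with SP300 at 200 mg/kg. No mouse overlapped, and this was the fall with the smallest adjusted p of any member in that group (1.58-fold, -0.66 ± 0.09 SE, adjusted p = 2.49e-07). With SP70 at 20 and 40 mg/kg and SP30 it fell by 0.39, 0.42 and 0.39, and SP30 lay above SP300 at 200 mg/kg (0.27 ± 0.09 SE, adjusted p = 0.0158), a call lost without SP300 mouse 2 (adjusted p = 0.0524). Ugt3a1 measured, on its brighter probe set, 7026, 6777, 8720, 6767 and 8639 in controls, 4642, 4417, 5440, 4650 and 4761 with SP30 and 7877, 6463, 8420, 7478 and 4782 with SP300 at 200 mg/kg. The SP30 mice were all below the controls (-0.66), the SP300 mice overlapped them (-0.13, adjusted p = 0.535), and SP30 was below SP300 at 200 mg/kg (-0.53 ± 0.14 SE, adjusted p = 0.00504). A second probe set of Ugt3a1 fell from a mean of 5681 in controls to 3589 with SP300 at 200 mg/kg (-0.67, adjusted p = 9.32e-06). It differed by -0.83 with SP30, so whether this gene fell with SP300 depends on the probe set. The second probe set is of a design that can also recognise related transcripts, and their part in its fall was not tested.

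Ugt2b5 and Ugt2b36, neighbours on chromosome 5 that act on steroids and drugs, differed in how many of their comparisons passed. Ugt2b5 ran from 50920 to 62650 in controls and from 39850 to 48460 with SP30, without overlap, and fell by 0.34, 0.37, 0.34 and 0.32 with SP70 at 20 and 40 mg/kg, SP30 and SP300 at 200 mg/kg. Ugt2b36 ran from 47960 to 50330 in controls and from 42090 to 46330 with SP30, also without overlap, but its difference of -0.13 had an adjusted p of 0.0589. The difference between both genes' changes was not tested. Ugt2b37 passed with SP70 at 20 mg/kg and in no other group (-0.74 ± 0.29 SE, adjusted p = 0.0397), a call lost without control mouse 3, 4 or 5 or mouse 2, 3 or 4 of the treated group (adjusted p = 0.0659 to 0.121). Ugt2b1 and Ugt2b38 did not pass in any group, with differences of -0.21 to 0.06 and -0.62 to 0.58.

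The windows before their starts are printed to show how alike these neighbours are, beside that of Ugt3a1, which holds the HNF1 palindrome.
Ugt2b5, chr5:87140341-87140590, minus strand: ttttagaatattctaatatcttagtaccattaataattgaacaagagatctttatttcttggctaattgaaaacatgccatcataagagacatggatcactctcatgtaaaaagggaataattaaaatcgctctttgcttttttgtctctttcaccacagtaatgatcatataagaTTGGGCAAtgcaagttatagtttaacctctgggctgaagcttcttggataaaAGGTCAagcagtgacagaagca
Ugt2b36, chr5:87092556-87092805, minus strand: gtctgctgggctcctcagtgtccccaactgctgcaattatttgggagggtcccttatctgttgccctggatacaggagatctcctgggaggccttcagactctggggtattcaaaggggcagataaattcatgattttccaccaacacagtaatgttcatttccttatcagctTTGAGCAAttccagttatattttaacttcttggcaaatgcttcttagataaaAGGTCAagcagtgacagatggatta
Ugt3a1, chr15:9279579-9279828, plus strand: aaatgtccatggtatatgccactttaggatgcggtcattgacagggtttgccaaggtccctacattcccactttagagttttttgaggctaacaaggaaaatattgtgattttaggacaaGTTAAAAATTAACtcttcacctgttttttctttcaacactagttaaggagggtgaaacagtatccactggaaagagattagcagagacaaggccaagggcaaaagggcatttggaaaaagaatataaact

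Ugt2b5 and Ugt2b36 were identical at 165 of 226 aligned bases (73.0%, with 48 further bases in gaps), and each held 1 match to TTGCNNAA and 1 to AGGTCA toward the start. AGGTCA stood in 7 of 31 member windows and in 13.8% of all 27025. The capitals in Ugt3a1 match the HNF1 palindrome on the opposite strand, found in 9 of the 27025 windows (0.0333%) and in no other member's. Windows of Ugt3a2, Gsta4, Gstt2 and Sult2a2 were not used here.

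**Figure D3:**
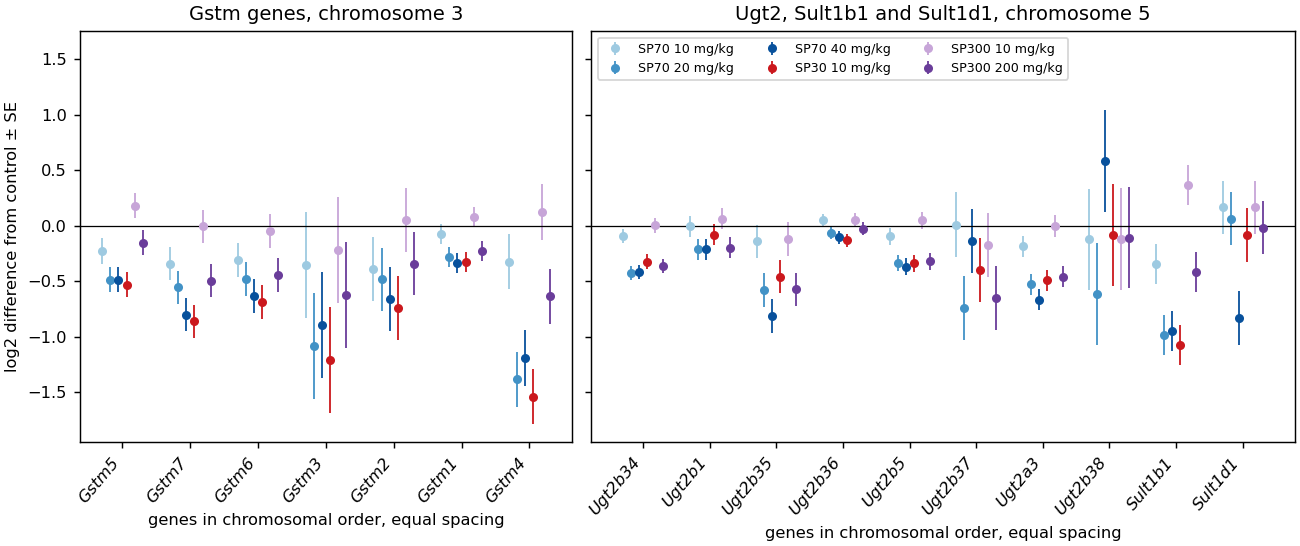
Difference from control (log2 ± SE) of the 7 Gstm genes on chromosome 3 and of the Ugt2 genes with Sult1b1 and Sult1d1 on chromosome 5, in chromosomal order and coloured by group. Gstm4 and Sult1b1 lie lowest with SP70 at 20 and 40 mg/kg and SP30 (-1.54 and -1.07 with SP30), while Sult1d1 lies lowest with SP70 at 40 mg/kg (-0.83).

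A number of genes of these families are measured on shared probe sets and are not members. The Ugt1a genes, which include the bilirubin-conjugating Ugt1a1, share 3 probe sets. These differed from control by -0.24, -0.13 and -0.18 with SP70 at 40 mg/kg (adjusted p = 0.000754, 0.0767 and 0.00904), by -0.20, -0.05 and -0.14 with SP30 (adjusted p = 0.00261, 0.481 and 0.0477) and by -0.21, -0.20 and -0.16 with SP300 at 200 mg/kg (adjusted p = 0.00388, 0.00612 and 0.0304). Among the members, 8 had a second probe set. In 60 comparisons of these pairs with control, the signs were opposite in 13, both passed in 19, 1 passed and the other did not in 10, and both passed with opposite signs in 1, the Gstm7 case above. The 10 were of Gsta3 (SP70 at 20 mg/kg and SP30), Gstm1, Gstm7, Gsto1 and Ugt3a1, so the number of groups in which these genes fell depends on the probe set.

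The dose question was addressed by comparing 40 with 10 mg/kg of SP70. There 21 members were lower and 0 higher at the higher dose, beside 25.3% of all genes lower and 5.22% higher, with a member median of -0.35 against -0.13 for all genes. The largest differences were those of Sult1c2 (at least 2.06-fold, -1.03 ± 0.26 SE, adjusted p = 0.00216), Sult1d1, Gstt3 (-0.92 ± 0.29 SE, adjusted p = 0.0132) and Gstm4 (-0.87 ± 0.25 SE, adjusted p = 0.00737). Ugt2b36, which had not passed against control, was lower here by 0.15, a call lost without any 1 of 5 mice (adjusted p = 0.0579 to 0.144). After quantile normalization 11 members passed in place of 21, with a member median of -0.19, and the higher and lower calls over all genes moved from 661 and 3211 to 1430 and 1712.

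At the one dose of 10 mg/kg, many members were lower with SP30 than with the other particles. Against SP300, 24 members were lower and 0 higher with SP30 (35.6% and 16.3% of all genes), with a member median of -0.49 against -0.18 for all genes. Sult1b1 measured 2031, 3178, 3739, 2916 and 3337 with SP300, above every SP30 mouse, a 2.73-fold difference (-1.44 ± 0.18 SE, adjusted p = 2.72e-08). Gstm4 was 3.19-fold lower with SP30 than with SP300 (-1.67 ± 0.25 SE, adjusted p = 8.29e-07), Sult1c2 at least 2.62-fold (-1.48 ± 0.26 SE, adjusted p = 8.54e-06) and Gstm7 1.81-fold (-0.86 ± 0.15 SE, adjusted p = 9.35e-06). Against SP70, 18 were lower and 0 higher with SP30 (23.6% and 5.41% of all genes; medians -0.32 and -0.13), among them Gstm4 (-1.22 ± 0.25 SE, adjusted p = 0.000318), Sult1c2 and Sult1b1. Sult2a2 also passed (-2.97 ± 1.13 SE, adjusted p = 0.0458), with all 5 SP30 mice at 13.48 to 62.07, below 165. SP70 mice at 114.9 and 84.14 were below 165 too, so no bound on the fold is given. The Sult2a2 call was lost without any 1 of 6 mice (adjusted p = 0.0638 to 0.161). With arrays centred on their medians 9 members were called in that comparison, and after quantile normalization 7. Over all genes the higher and lower calls there moved from 685 and 2991 to 805 and 1953 when centred and to 1356 and 1821 after quantile normalization, and against SP300 from 2059 and 4509 to 2718 and 3748 after quantile normalization. SP70 against SP300 gave 3 lower and 0 higher with SP70 (10.2% and 10.5% of all genes): Sult1b1 (-0.71 ± 0.18 SE, adjusted p = 0.00367), Gstm5 (-0.41 ± 0.11 SE, adjusted p = 0.00908) and Gsto1 (-0.33 ± 0.10 SE, adjusted p = 0.0176), the last call being lost without mouse 3 of either group or SP70 mouse 5 (adjusted p = 0.0583 to 0.0808).

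At the toxic doses, which differ between sizes, SP30 at 10 mg/kg and SP70 at 40 mg/kg differed past the threshold in 0 members by limma, beside 5.71% of all genes in either direction (3.68% higher and 2.03% lower). At an unadjusted p below 0.05, 4 were higher with SP30 and 0 lower: Sult1d1 (0.75), Ugt2b35 (0.35), Gsta4 (0.27) and Gsta3 (0.16). The widest 95% interval of the 35 differences reached from -3.34 to 1.27. It was that of Sult2a2, which lay below 165 in most mice. The median SE over the 35 members was 0.142. A count of 0 past the threshold does not show that both treatments act alike. Against SP300 at 200 mg/kg, SP30 was lower in 5 members and higher in 2 (17.5% and 11.6% of all genes): Gstm4 (-0.90 ± 0.25 SE, adjusted p = 0.0059), Sult1b1, Ugt3a1, Gsto1 and Gstm5 lower, Ugt3a2 and Gstp1 higher. The call of Gstp1 was lost without any 1 of 8 mice (adjusted p = 0.051 to 0.128), and that of Ugt3a1 was made on its brighter probe set. SP70 at 40 mg/kg was lower than SP300 at 200 mg/kg in 9 members and higher in 0 (10.4% and 5.04% of all genes), led by Gstt3 (-0.84 ± 0.29 SE, adjusted p = 0.0407), Sult1d1 and Gsta2 (-0.72 ± 0.21 SE, adjusted p = 0.0189). The call of Gstt3 was lost without any 1 of 7 mice (adjusted p = 0.051 to 0.107), and that of Gsta2 without SP70 mouse 4 or SP300 mouse 1. That count was 3 or 5 without SP300 200 mg/kg mouse 1 or 4, and 4 without SP70 40 mg/kg mouse 2 or 5, and it was 14 with arrays centred on their medians. Centring moved the higher and lower calls over all genes from 639 and 1321 to 476 and 2545 there, and from 466 and 257 to 627 and 139 for SP30 against SP70 at 40 mg/kg.

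The genes that feed these enzymes fell in part. In the 4 groups named next, 20.9%, 28.8%, 31.3% and 18.1% of all genes fell and 18.8%, 15.6%, 18.1% and 12.6% rose. Of 12 genes of glutathione synthesis and recycling, 3, 6, 7 and 5 fell with SP70 at 20 and 40 mg/kg, SP30 and SP300 at 200 mg/kg, and 1 rose in each. Gclc, the catalytic subunit of the rate-limiting enzyme of glutathione synthesis, fell by 0.68, 1.22, 1.14 and 1.31 in these groups, and its partner Gclm by 0.62, 0.50 and 0.36 in the last 3. Cth, which makes cysteine from cystathionine, fell by 0.66, 1.20, 1.04 and 0.59. The riser was the cystine importer Slc7a11, from a control mean of 55.23, below the filter level. Of 9 genes that supply glucuronic acid and PAPS, 3, 2, 4 and 2 fell and 2, 0, 2 and 0 rose. Papss2, which makes PAPS, fell by 0.66, 1.16, 0.83 and 0.68, and the Golgi PAPS carrier Slc35b2 by 0.53, 0.49, 0.77 and 0.52.

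Other conjugating enzymes and the transporters of conjugates showed similar counts, to be read beside the shares of all genes just given. Of 19 microsomal glutathione transferases, methyl-, acetyl- and acyltransferases and epoxide hydrolases, 9, 11, 10 and 10 fell and 1, 2, 3 and 1 rose in the same 4 groups. The thiopurine methyltransferase Tpmt fell by 0.84, 0.93, 0.71 and 0.58, the glycine acyltransferase Glyat by 0.72, 0.86, 0.84 and 0.56, and the microsomal epoxide hydrolase Ephx1 by 0.74, 0.51, 0.65 and 0.38. Baat, which conjugates bile acids with taurine and glycine, rose by 0.36, 0.26 and 0.27 in the first 3. Of 7 deconjugating enzymes 4, 5, 4 and 3 fell. Of 14 transporters 8, 10, 9 and 7 fell, among them the bile salt export pump Abcb11 (by 0.67, 0.86, 0.87 and 0.56) and the bile acid importer Slc10a1 (by 0.46, 0.63, 0.64 and 0.38), while the efflux pump Abcc1 rose by 1.43, 1.36, 1.80 and 0.91.

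Regulators and NRF2 targets were mixed. The shares of all genes are as above, with 5.7% lower and 12.5% higher for SP70 at 10 mg/kg. Of 21 xenobiotic sensors and liver transcription factors, 7, 7, 10 and 8 fell and 3, 5, 6 and 4 rose in the same 4 groups, and with SP70 at 10 mg/kg 5 fell and 6 rose. The constitutive androstane receptor Nr1i3 fell by 0.66, 1.51 and 1.45 with the rising doses of SP70, by 2.12 with SP30 and by 0.70 with SP300 at 200 mg/kg, and the aryl hydrocarbon receptor Ahr by 0.61, 1.03, 1.11, 1.33 and 0.99. Of 13 NRF2 targets outside the transferase families, 2, 4, 4 and 4 fell and 5, 4, 6 and 3 rose. Gclc, Gclm and Slc7a11 are also in the list of glutathione synthesis and recycling, so both counts include them. The heme oxygenase Hmox1 rose by 1.21, 3.49, 3.74 and 0.85 in the 4 groups and by 2.37 with SP70 at 10 mg/kg, and the sulfiredoxin Srxn1 by 0.93, 0.93, 1.51 and 0.59. The quinone reductase Nqo1, another NRF2 target, differed by -0.28 to 0.24 and did not pass in any group. With SP300 at 10 mg/kg 2 genes of these 7 lists passed, Onecut1 (-2.32) and Bcl6 (1.78), where 0.245% of all genes fell and 0.923% rose.

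**Figure D4:**
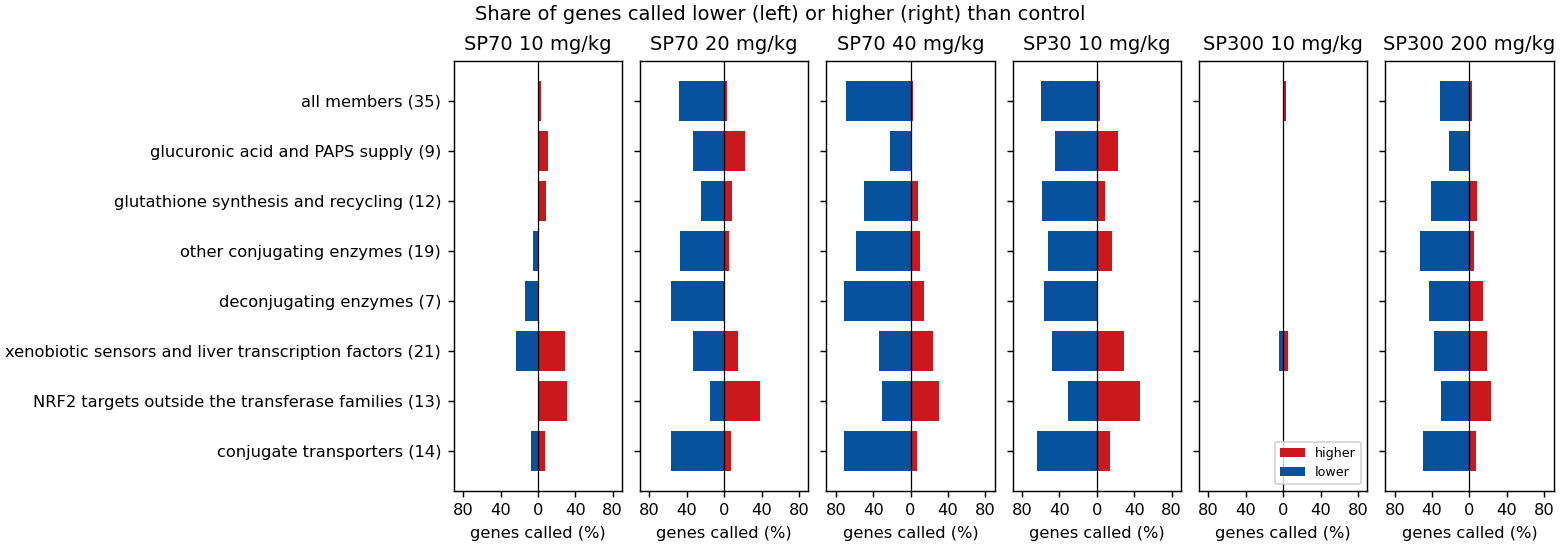
Percent of genes that fell (to the left) or rose (to the right) against control, for the 35 members and 7 lists of related genes, in each treated group, with list sizes in brackets. Members and conjugate transporters lie mostly to the left (24 of 35 and 10 of 14 with SP70 at 40 mg/kg), and sensors and NRF2 targets extend to both sides.

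Markers of other liver cell types moved with these groups. With SP70 in order of dose, SP30 and SP300 at 200 mg/kg, 5.7%, 20.9%, 28.8%, 31.3% and 18.1% of all genes fell. In the same order, 12.5%, 18.8%, 15.6%, 18.1% and 12.6% rose. Of 12 hepatocyte markers listed, 10 passed the filter on low values, and their signals summed to 664400 to 707100 in controls and to 569400 to 796100 over the treated mice, as the liver label requires. Of these 10, 3 fell with SP70 at 40 mg/kg, 1 fell and 1 rose with SP30, and 6 fell with SP300 at 200 mg/kg. The 12 Kupffer cell and macrophage markers summed to 27360 to 39570 in controls and 30410 to 43550 with SP300 at 10 mg/kg. With SP70 they summed to 11120 to 18430, 3407 to 5765 and 2205 to 3623 in order of dose, with SP30 to 8831 to 19500 and with SP300 at 200 mg/kg to 2251 to 2665, and 8, 10, 10, 9 and 11 of them fell. Of 8 neutrophil markers 5, 5, 6, 7 and 4 rose in the same 5 groups. Their sum was 968 to 2919 in controls and 1181 to 1905 with SP300 at 10 mg/kg, and in these 5 groups 18550 to 26090, 19420 to 29760, 26010 to 62950, 48010 to 65800 and 10270 to 25310. All 6 monocyte markers that passed the filter rose with SP30 and each SP70 dose and 5 with SP300 at 200 mg/kg. Their sum was already 38430 to 40740 in controls, and 38470 to 50300 with SP300 at 10 mg/kg. In the same 5 groups it was 47680 to 56080, 50790 to 55470, 44920 to 59210, 54930 to 59250 and 42940 to 49230. Of 10 sinusoidal endothelial markers 7 fell with SP70 at 40 mg/kg and with SP30, and of 9 stellate cell markers 4 and 6. With SP70 at 10 mg/kg, 5 neutrophil and 6 monocyte markers rose and 8 Kupffer markers fell. At that dose 0 members fell, beside 5.7% of all genes, a member count that rests on the scaling. Of 4 cholangiocyte markers that passed the filter, 1, Sox9, rose in 5 groups. Their sum was 537.9 to 893.2 in controls, 1085 to 1852 with SP70 at 20 mg/kg and 1416 to 1898 with SP30. In the remaining groups that sum overlapped the controls. Of 2 lymphocyte markers that passed, 1, Gzma, rose with each SP70 dose, and 2 of 2 erythroid markers fell with SP300 at 200 mg/kg. The part of these cell types in the members' differences was not tested.

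Members also varied together between mice of one group. After subtraction of each group's mean, the log2 signals of the 595 pairs of members were correlated over the 35 mice, and 102 pairs passed an adjusted permutation p of 0.05, of which 87 were positive and 15 negative. The Gstm genes held the closest pairs: Gstm3 with Gstm6 (Pearson's r 0.866, adjusted permutation p = 0.000992; Spearman's rho 0.884, adjusted p = 0.000992; r 0.865 without the 2 mice farthest from the median) and Gstm2 with Gstm3 (r 0.858 and rho 0.861, both adjusted permutation p = 0.000992; r 0.838 without the 2 farthest mice). Gstt1 and Gstt3 also varied together (r 0.773, adjusted permutation p = 0.0028; rho 0.679, adjusted p = 0.00773; r 0.683 without the 2 farthest). The most negative pair was Ugt2b38 with Gstt3 (r -0.847, adjusted permutation p = 0.00149; rho -0.776, adjusted p = 0.00162; r -0.75 without the 2 farthest and -0.787 without control mouse 1). In controls Gstt3 was 6002 in mouse 1 and 1105 to 3269 in the others, while Ugt2b38 was 595.4 in mouse 1 and 2642 to 8309 in the others. Mice of a group share no recorded factor beyond the treatment, and the pairs were computed after the group values had been seen. In the Gstm pairs above, the Gstm3 probe set is of a design that can also recognise related transcripts. Its part in these correlations was not tested.

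**Figure D5:**
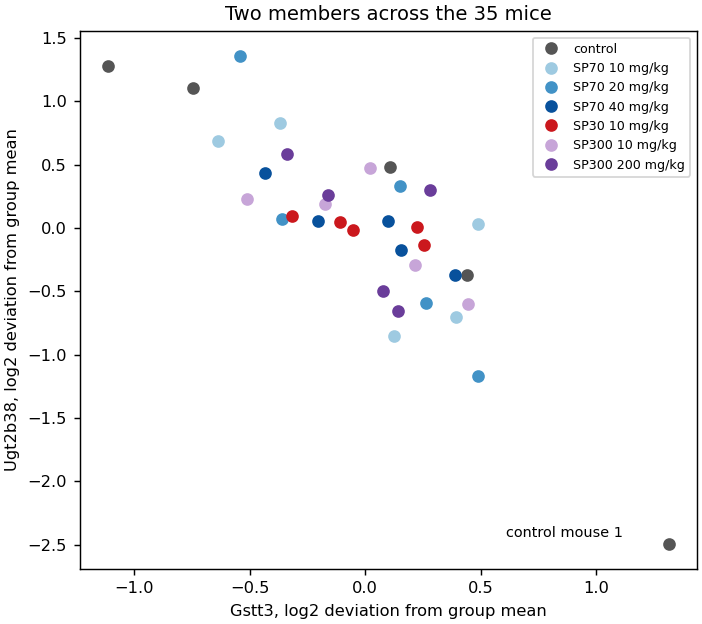
Deviation of each of the 35 mice from its own group's mean (log2) for Gstt3 and Ugt2b38, coloured by group. Mice with more Gstt3 had less Ugt2b38 (r -0.847), and control mouse 1 lies at the far end with the highest Gstt3.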

How the data were processed

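Liver RNA of 35 mice was measured on Affymetrix mouse 3′ expression arrays, 1 array per mouse. The deposited values are intensity values on a linear scale, made by the authors with MAS5 per the submitters' processing notes. Neither scaling target nor software version is given in the sources used here. The log2 values were computed here. Of 45101 probe sets, those annotated to 1 gene were used, and the one with the highest mean represented each of 18194 genes. For second and shared probe sets, a separate fit held all 26923 probe sets above 165 on 5 or more arrays, shared ones included. Genes above 165, the median of all values, on 5 or more arrays were fitted on log2(signal + 12.5), the pseudocount being the 10 percent quantile, with limma 3.58.1 in R 4.3.3: a mean per group over all 35 arrays, eBayes with trend, two-sided, Benjamini-Hochberg adjustment over 12670 genes, threshold 0.05. Folds are bounds ("at least") if any signal in the lower group was under 165, and none is given where the higher group also held such signals. No array batch was given in the labels. The number of arrays limits the precision, and p-values cover the spread between mice.

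The members and the lists of related genes and of cell type markers were chosen with earlier results of these data known, and so were the motifs, the windows shown, the grouping of chromosomal neighbours and the pairs of members. Full statistics go, against control, to up to 6 highest and 6 lowest members past the threshold whose 5 treated mice lie on one side of the control mean, and between treated groups to up to 4 in each direction. Correlations used 100000 permutations. Alternatives were another pseudocount, filter, scaling, fit, a replicate block and leaving out each mouse. Over all genes tested, same-numbered mice of different groups did not deviate together (mean r -0.000552 over 105 pairs, from -0.103 to 0.112). The numbers were therefore not taken to pair mice. A pairing that touches only some genes or groups would not show in this mean. The fit was tested on simulated data. Promoter sequences are RefSeq's (GRCm38.p6); 31 of 35 members matched.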

Additional observations from a re-analysis of the deposited data

Results flagged for a closer look

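In 17 of 245 sets of 5 mice (35 members in 7 groups), 1 mouse lay farther from its group than Dixon's 95% critical value allows; chance alone gives this in about 1 of 20 groups. The 17 sets fell on 14 mice. SP300 10 mg/kg mouse 3 was the highest of its group for 3 members, Gsto1 (15530), Gstz1 (37120) and Sult2a8 (62100). Sult2a2 accounted for 4 sets, with high values in control mouse 1 (12180), SP70 10 mg/kg mouse 5 (2434), SP70 40 mg/kg mouse 1 (313.1) and SP300 200 mg/kg mouse 5 (867.9), among mice that mostly lay below 165. In the SP70 40 mg/kg group, Gsto1 in mouse 2 (7420) and Ugt3a1 in mouse 5 (3993) were low and Sult5a1 in mouse 2 measured 1043. In the SP30 group, Gstm1 was high in mouse 3 (36060) and Gstm6 in mouse 5 measured 3957. The remaining sets were Gsta4 in SP70 20 mg/kg mouse 2 (9247), Ugt2b5 in SP70 20 mg/kg mouse 1 (50680), Ugt3a2 in SP70 10 mg/kg mouse 2 (21750), Sult5a1 in SP70 10 mg/kg mouse 3 (953.4) and Ugt2b34 in SP300 200 mg/kg mouse 4 (28630).

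A signal outside the probe sets described above was that of a second probe set of Gstm7, which rose by 0.55 on the log2 scale with SP70 at 40 mg/kg while the brighter probe set of the gene fell by 0.80.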

How the results depend on the processing

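Over the 13 counts of members called and 10 settings of the fit, 9 values moved by more than 1.5 times. With arrays centred on their medians, SP30 against SP70 at 10 mg/kg gave 9, SP30 against SP70 at 40 mg/kg 1, and SP70 at 40 against SP300 at 200 mg/kg 14. In fits of only the 2 groups compared, SP300 and SP70 at 10 mg/kg against control each gave 0, and SP30 against SP70 at 40 mg/kg 2. After quantile normalization, SP70 at 10 mg/kg against control gave 5, SP30 against SP70 at 10 mg/kg 7, and SP70 at 40 against 10 mg/kg 11. The replicate number as a block, which was not taken to pair the mice, moved 0 of 13 counts by that much (25 members called for SP70 at 40 mg/kg and 22 for SP30 against control). Leaving out 1 mouse at a time gave, against control, 19 to 25 for SP30, 1 to 3, 17 to 21 and 24 to 27 for SP70 in order of dose, and 0 to 1 and 9 to 15 for SP300 at 10 and 200 mg/kg. Between treated groups it gave 17 to 23 (SP70 at 40 against 10 mg/kg), 13 to 18, 23 to 25 and 2 to 4 (SP30 against SP70, SP30 against SP300 and SP70 against SP300 at 10 mg/kg), and 0 to 0, 5 to 7 and 3 to 10 at the toxic doses (SP30 against SP70, SP30 against SP300 and SP70 against SP300). For single members, 89 of 1100 values under an alternative lost significance and 0 changed sign. The cause of these shifts was not tested.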

Other observations

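Control mouse 1, which had the largest deviation over the members, also differed from the other controls in genes known for higher levels in male or in female mouse liver. This list of 22 genes was drawn up after the members' values had been seen, and 15 had a probe set of their own. Control mouse 1 lay outside the range of the other 4 controls for 14 of them and outside the range of all other mice for 6. The shares of all genes for which this mouse lay outside those ranges were not computed. The counts therefore do not set this list apart from other genes. Cyp7b1 measured 6062 there and at least 12490 in the other 34 mice, C6 561.1 and at least 716. Cyp2b9 measured 16100 there and at most 5813 elsewhere, Cyp2b13 9786 and at most 917.9, Acot3 3643 and at most 2333, and Hamp2 78480 and at most 65310. The Y-linked Kdm5d measured 1059 in this mouse and 552.6 to 1606 over all 35. Sex was not used here, and the part of these genes' pattern in the members' values was not tested.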
